A study of Hydra viridissima with 2 samples.

Results

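Broad transcription start clusters of the green hydra, Hydra viridissima, are stretches of over 100 bases in which RNA 5′ ends were spread over many positions. The data are tag counts from CAGE, a method that marks the capped 5′ end of RNA, in 1 library of aposymbiotic animals and 1 library of green, symbiotic animals, both of clone 2. Aposymbiotic animals lack the green algal symbiont, and how these animals were obtained is not given in the labels. Each library came from RNA of a pool of whole large polyps kept at 24 °C and fed brine shrimp, so both groups share the clone, the food and the days without food before collection. With 1 library per group no difference below has a replicate check, no p-value was computed, and each comparison is between these libraries. The files hold positions without gene names, so the loss of the alga and the cell types in the pools were not checked, and the genome build is not given in the sources used here.

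The clusters were made by pooling the tags of both libraries at each stranded base and joining stranded positions that had at most 20 bases between them. Width ran from the position of the 10th percentile of the pooled tags to that of the 90th. Of 2664 clusters with at least 100 pooled tags, 237 were at or above a pooled level of 500 CPM (counts per 1000000 tags) and were set aside. Of the 2427 left, 801 were wider than 100 bases and are called broad here, and the other 1626 are called narrower. The members were thus chosen by their pooled tags and pooled width, and these values are given as a description. A further 142 wide clusters lay above the ceiling and are no members.

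Where RNA polymerase II starts to transcribe is set by the core promoter. In animals studied in detail, promoters with a TATA box tend to start at a single base, while promoters without one, often those of genes used in most cells, tend to start over a broad region. In Hydra vulgaris, a related species, many transcripts receive a spliced leader, a short RNA that replaces the original capped 5′ end.

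The aposymbiotic library held 2138180 tags and the symbiotic library 3926689 tags, so that a single tag was worth 0.468 and 0.255 CPM. The broad clusters held 161224 aposymbiotic tags, 7.54% of that library, and 287930 symbiotic tags, 7.33%. A broad cluster had from 24 to 1529 aposymbiotic tags with a median of 118, and from 44 to 2122 symbiotic tags with a median of 213. The median level was 55.2 CPM by aposymbiotic and 54.2 CPM by symbiotic tags, against 30.9 and 29.0 CPM in the narrower clusters. Broad clusters were thus the deeper set at the median, and comparisons of the libraries within a cluster are given below also by number of tags. All intervals stand for counting error alone. Those of folds take each tag as a separate molecule, which reads copied by amplification are not, so they may be too narrow. Those of shares treat clusters as independent.

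The median broad cluster was 142 bases wide, and the 25th and 75th percentiles were 118 and 183 bases. Widths thinned out gradually above the threshold: 140 clusters were wider than 200 bases, 28 were wider than 300 bases, and the widest reached 542 bases. The threshold fell on a continuous slope. Widths from 101 to 105 bases were found in 60 clusters and widths from 96 to 100 bases in 75. Of the 3 members at 101 bases with the most tags, the first lay on scaffold_6 from 1885441 to 1885594, minus strand, with 575 aposymbiotic and 723 symbiotic tags. The others, both on the plus strand, lay on scaffold_4 from 10325070 to 10325366, with 382 and 508 tags, and on scaffold_10 from 12947121 to 12947321, with 248 and 374 tags. Just outside, at 100 bases, were clusters on scaffold_1 from 8987287 to 8987447 (993 and 1354 tags), on scaffold_3 from 16335401 to 16335563 (634 and 986 tags) and on scaffold_5 from 9682736 to 9682895 (391 and 936 tags), all on the plus strand. In 10 of the 801 clusters the width was exactly 101 bases.

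**Figure D1:**
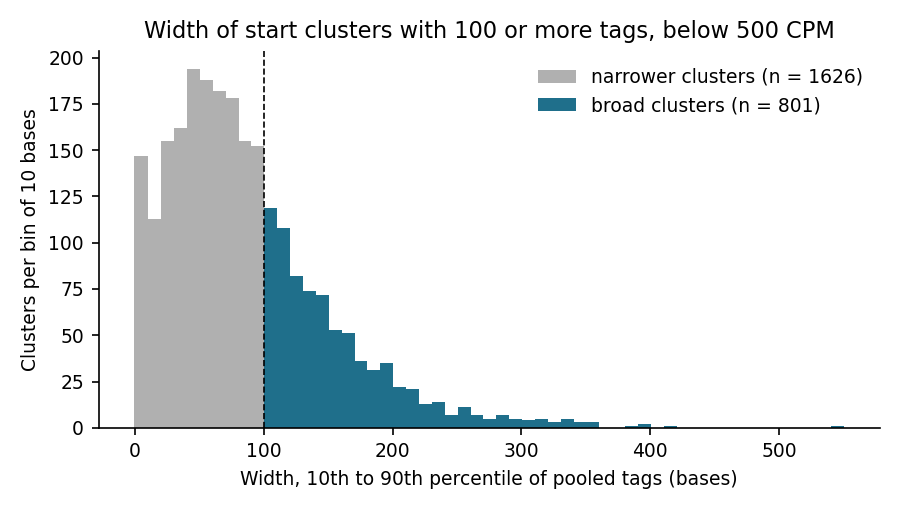
Histogram of the width of all 2427 start clusters with at least 100 pooled tags and below 500 CPM, in bins of 10 bases (the first bin also holds width 0), with the 801 broad clusters in blue, the 1626 narrower ones in grey and the threshold as a dashed line. The number of clusters falls smoothly past 100 bases, with a tail that ends at 542 bases.

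Broad clusters were found on 27 of the 110 scaffolds with tags. The most lay on scaffold_1, with 105 of its 300 eligible clusters, and on scaffold_2, with 84 of 296. They made up 25.8% of the eligible clusters of scaffold_11 and 43.8% of those of scaffold_8, the lowest and the highest shares among scaffolds 1 to 14. The plus strand held 424 and the minus strand 377. Scaffolds numbered above 18 held 10 broad and 29 narrower clusters.

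Most broad clusters were chains of separate peaks, with gaps between them, rather than evenly filled stretches. Between the percentile positions a median of 32.3% of the bases carried a tag, from 13.9% to 82.8%, against a median of 42.3% in narrower clusters. The longest run of untagged bases had a median of 17, close to the joining limit of 20, against 11 in narrower clusters. These measures were not split by number of tags. When positions with at most 5 bases between them were joined, a broad cluster fell into a median of 10 sub-clusters (1 to 37), against 5 in the narrower clusters. A single tag could make up a sub-cluster in this count. At least 3 sub-clusters with 10% or more of the tags each were present in 612 broad clusters (76.4%, 73.3 to 79.3), and in 32.0% (29.7 to 34.3) of the narrower ones. A single sub-cluster held at least 50% of the tags in 176 broad clusters (22.0%). The number of broad clusters followed the joining distance: it was 155 with at most 10 bases between joined positions and 1725 with at most 40. Since the rule required width, these contrasts with the narrower set describe the sets and are not a test.

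The base with the most tags, the dominant base, held a median of 13.6% of the tags of a broad cluster, with a range from 3.74% to 51.0%. In the narrower clusters the median was 24.3%. The share was nearly the same at all depths in the broad set, with medians from 12.9% to 14.2% over classes from 100 to 199 tags up to 1000 tags or more. The effective number of positions, which is the number of equally used bases that would give the same spread of tags, had a median of 18.7 (3.67 to 87.7) in broad and 8.93 in narrower clusters. A second base over 20 bases away with at least 50% of the tags of the dominant base was present in 542 broad clusters (67.7%, 64.3 to 70.9), and one with at least 80% in 225 (28.1%). Over all 801 broad clusters, whatever its height, the strongest base over 20 bases away lay at a median of 78 bases from the dominant one, on the 5′ side in 409 (51.1%, 47.5 to 54.6). The range between the percentile positions was divided into 3 equal segments. The dominant base lay in the 5′-most in 311 cases (38.8%) and in the 3′-most in 302 (37.7%). In narrower clusters these shares were 42.7% and 40.5%. The same tags set the percentile positions, so these shares are a description. Tags at neighbouring bases were alike over short distances: the median autocorrelation of the log tag profile was 0.48 at a lag of 1 base, 0.18 at 3 bases and -0.03 at 5 bases. In narrower clusters over 40 bases wide it was 0.51, 0.17 and -0.05 at these lags. Per the labels' protocols the reads carry up to a few extra bases before the ligated dinucleotide, and whether this widens a peak was not tested.

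The 6 broad clusters with the most tags show how varied the set was inside, and how alike the libraries were. The first lay on scaffold_6 from 15162692 to 15162880, minus strand, with 1097 aposymbiotic and 1880 symbiotic tags (513 and 479 CPM). It was 139 bases wide in both libraries with tags at 130 positions, and the dominant base took 8.66% of aposymbiotic and 8.09% of symbiotic tags. Its next strongest base, 9 bases to the 3′ side, had 89 and 107 tags against 95 and 152 at the dominant base. The second, also on the minus strand, lay on scaffold_11 from 13290635 to 13290830 and had 1061 and 1912 tags (496 and 487 CPM). It had 2 poles 150 bases apart: the dominant base had 210 and 312 tags and the base on the 5′ side 156 and 290 tags. The order of the poles was thus the same in both libraries.

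The third lay on scaffold_5 from 14116078 to 14116291, minus strand, with 994 and 1960 tags (465 and 499 CPM), and had a single main peak. Its dominant base took 21.0% of aposymbiotic and 22.8% of symbiotic tags, and the strongest base over 20 bases away had 24.7% of its tags. It stood at the 5′ end of a locus of 13 clusters in which 3 others were stronger. The fourth lay on scaffold_6 from 14767153 to 14767697, plus strand, with 795 and 2122 tags (372 and 540 CPM). Here the libraries differed most among the 6. The dominant base held 9.06% of the aposymbiotic tags (72) and 14.3% of the symbiotic tags (303), and the whole cluster was 1.45-fold higher (1.34 to 1.58) in the symbiotic library.

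The fifth lay on scaffold_1 from 25827541 to 25827900, plus strand, with 978 and 1928 tags (457 and 491 CPM). Its dominant base held 26.6% and 28.9% of the tags and sat near the 3′ end, with a second peak of 142 and 293 tags 100 bases before it. The sixth lay on scaffold_1 from 9577231 to 9577586, minus strand, with 1020 and 1825 tags (477 and 465 CPM). Its dominant base had 151 and 224 tags, and the base 171 bases to the 5′ side had 68 and 156 tags. All 6 had the same dominant base in both libraries, and for 5 of them the interval of the CPM ratio included 1.

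**Figure D2:**
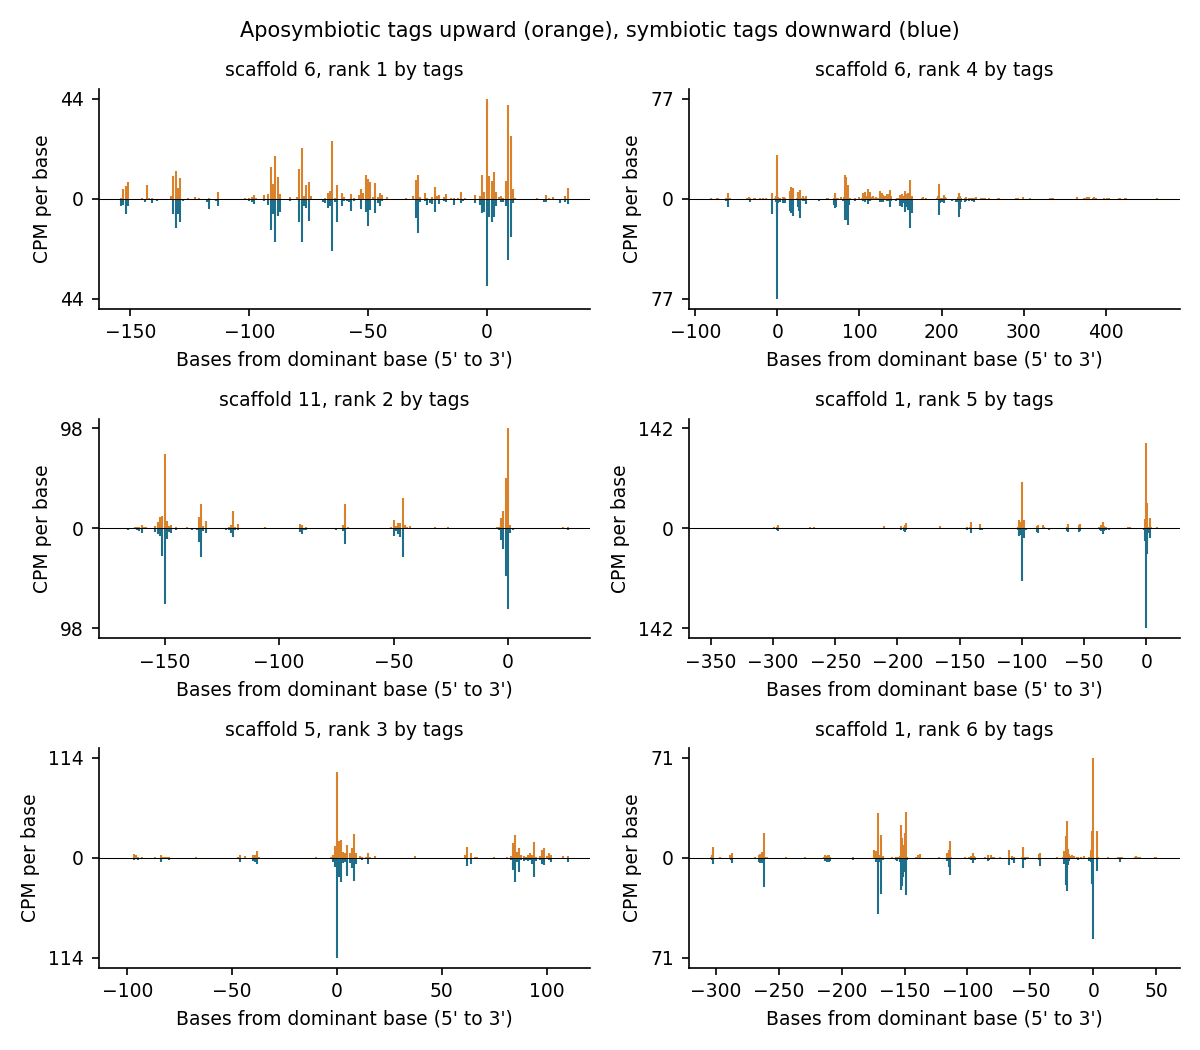
Tags per base, in CPM, along the 6 broad clusters with the most tags, by distance in bases from the dominant base (5′ to 3′), with aposymbiotic tags drawn upward in orange and symbiotic tags downward in blue. The peaks mirror each other in position in every panel, with 2 poles 150 bases apart on scaffold 11 and a taller symbiotic dominant base in the fourth cluster.

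The widest clusters were made of many small peaks. On scaffold_12 from 6980182 to 6980993, plus strand, 515 aposymbiotic and 1185 symbiotic tags (241 and 302 CPM) fell on 284 positions in 37 sub-clusters, and the width was 575 bases by the aposymbiotic and 492 bases by the symbiotic tags. It held 95.9% of the tags of its locus. The next, on scaffold_1 from 1640265 to 1640853, minus strand, had 354 and 493 tags (166 and 126 CPM), widths of 406 and 428 bases and an effective number of 69.8 positions. Its dominant base held 4.01% of the pooled tags, and the dominant bases of the libraries lay 9 bases apart. On scaffold_2 from 20222664 to 20223347, plus strand, 690 and 1709 tags (323 and 435 CPM) gave widths of 400 and 371 bases around the same dominant base. On scaffold_6 from 14769993 to 14770492, plus strand, 362 and 659 tags (169 and 168 CPM) gave widths of 395 and 391 bases, yet the dominant bases of the libraries lay 347 bases apart, at nearly opposite ends. The second pole there had 90.6% of the pooled tags of the first. The remaining members among the 6 widest lay on scaffold_1 from 13540176 to 13540690, minus strand (323 and 930 tags), and on scaffold_7 from 3535818 to 3536472, plus strand (633 and 930 tags). All 6 were within 2-fold between the libraries, with CPM ratios of symbiotic over aposymbiotic from 0.758 to 1.57.

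At the other extreme were wide clusters with a large share of their tags at a single base. On scaffold_9 from 1368807 to 1368987, plus strand, the dominant base held 52.9% of 138 aposymbiotic and 50.2% of 295 symbiotic tags, and the strongest base over 20 bases away had 6.79% as many. On scaffold_2 from 17180745 to 17180932, plus strand, the share was 42.5% of 120 and 54.5% of 213 tags, and the strongest base over 20 bases away had 8.98% as many. On scaffold_4 from 11875976 to 11876118, plus strand, it was 45.0% of 40 and 46.0% of 63 tags, but a second base 107 bases away had 44.7% as many tags. Such clusters were few, since the dominant base held at least 25% of the tags in 84 broad clusters (10.5%), whereas it held under 10% in 170 (21.2%). The smallest dominant share was that of the cluster on scaffold_2 from 21862547 to 21863119, plus strand, where the dominant base held 3.74% of the pooled tags and 424 and 512 tags gave an effective number of 78.2 positions. The next smallest shares were those of the second widest cluster and one on scaffold_1 from 29464010 to 29464321, minus strand, with 69 and 202 tags and a share of 4.06%.

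Wider members were also deeper and stronger in their surroundings. From clusters of 101 to 120 bases (n = 227) to those over 200 bases (n = 140), the median number of tags went from 206 to 701.5, the median share of the dominant base from 15.9% to 10.1%, and the effective number of positions from 15.9 to 31.1. Over the 801 clusters, which share the same libraries, width and pooled tags had a Spearman correlation of 0.37, given as a description.

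The next question was whether width is a stable property of a cluster in the separate libraries. By their own tags, 744 broad clusters (92.9%) exceeded 100 bases by aposymbiotic tags and 776 (96.9%) by symbiotic tags, and 721 did in each. In the 771 with at least 35 tags in each library, both thinned to the same number of tags in each cluster, the median width was 141 bases by aposymbiotic and 142 bases by symbiotic tags. The widths lay within 20 bases of each other in 566 of them (73.4%, 70.1 to 76.5). Because both libraries had chosen these members, the measure was repeated with clusters chosen in 1 library and measured in the other. Of 280 clusters broad by aposymbiotic tags alone, 247 (88.2%, 83.8 to 91.7) were broad by the symbiotic tags, with median widths of 137.5 and 134 bases. Of 498 broad by symbiotic tags alone, 449 (90.2%, 87.2 to 92.6) were broad by the aposymbiotic tags, with median widths of 142 and 141 bases. Clusters of 100 bases or less in the choosing library were broad in the other in 3.39% (2.11 to 5.14) and 4.04% (2.93 to 5.42) of cases.

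The dominant base was compared next. It was the same base in both libraries in 476 of 801 broad clusters (59.4%, 55.9 to 62.8) and in 1151 of 1626 narrower ones (70.8%, 68.5 to 73.0). The share moved with depth in both sets. With 100 to 199 tags it was 45.3% (39.0 to 51.8) in broad and 65.7% (62.5 to 68.8) in narrower clusters, and with 1000 tags or more it was 74.6% (66.1 to 81.9) and 88.6% (80.9 to 94.0). In each of the 4 classes of depth the broad share was the lower, and the intervals of the sets overlapped only in the deepest class. Where the dominant bases of a broad cluster differed, they lay a median of 52 bases apart, and in 167 clusters (20.8%) they lay over 50 bases apart. The Kolmogorov-Smirnov distance, the largest gap between the cumulated tag profiles of the libraries, had a median of 0.110 in broad and 0.113 in narrower clusters. This distance fell with depth, and within each of the 4 classes its median was the higher in broad clusters. It was 0.152 in broad and 0.141 in narrower clusters of 100 to 199 tags, 0.110 and 0.101 with 200 to 499 tags, 0.085 and 0.066 with 500 to 999 tags, and 0.069 and 0.050 with 1000 tags or more. Since the rule required width and the dominant share was lower in broad clusters, these contrasts describe the sets and are not a test.

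**Figure D3:**
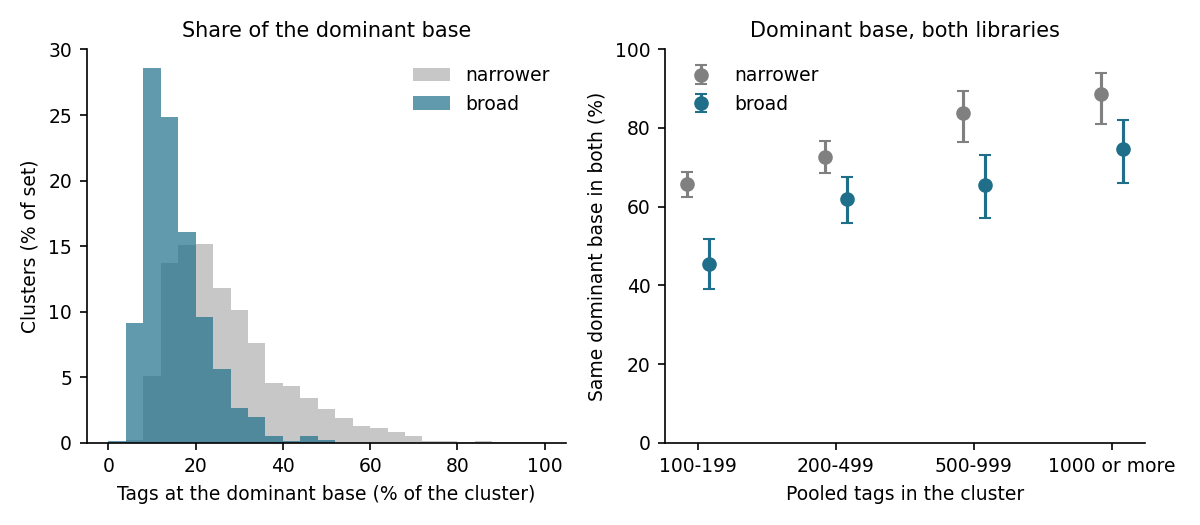
Left, histogram of the share of tags at the dominant base, in percent of each set of clusters (broad in blue, narrower in grey). Right, share of clusters with the same dominant base in both libraries by number of pooled tags, with exact 95% binomial intervals; the broad clusters lie lower in every class, from 45.3% to 74.6%.

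The largest such distances belonged to clusters with few tags. On scaffold_9 from 6960417 to 6960610, minus strand, 60 aposymbiotic and 91 symbiotic tags gave a distance of 0.359. The dominant base was 6960569 by aposymbiotic and 6960452 by symbiotic tags, the latter 117 bases further to the 3′ side. This cluster held 0.244% of the 61861 pooled tags of its locus. On scaffold_6 from 16029238 to 16029590, plus strand, with 59 and 107 tags, the distance was 0.349 and the dominant bases lay 289 bases apart. On scaffold_1 from 35787624 to 35787773, plus strand, with 53 and 95 tags, the distance was 0.344, and the symbiotic dominant base lay 89 bases to the 5′ side. The direction of these 3 shifts was mixed. Their widths by all aposymbiotic and all symbiotic tags were 120 and 117, 263 and 243, and 145 and 146 bases. With equal tags the cluster on scaffold_6 had widths of 263 and 221 bases, and the other widths were unchanged.

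Across the whole set, symbiotic tags lay slightly nearer the 5′ end of broad clusters. The mean position of the symbiotic tags was on the 5′ side of that of the aposymbiotic tags in 513 of 801 clusters (64.0%, 60.6 to 67.4), with a median difference of -3.32 bases along the transcript. A difference of at least 10 bases towards the 5′ end occurred in 201 clusters and towards the 3′ end in 60. The share was 56.7% (50.2 to 62.9) in clusters of 100 to 199 tags, 62.5% with 200 to 499 tags, 73.8% with 500 to 999 tags and 70.6% (61.9 to 78.4) in those with 1000 tags or more. By width it went from 57.3% in clusters of 101 to 120 bases to 72.9% in those over 200 bases, where the median difference was -8.33 bases. The latter were also the deeper class, with a median of 701.5 against 206 tags. The range between the percentile positions of each cluster was also divided into 3 equal segments. The median log2 ratio of symbiotic over aposymbiotic CPM + 1 was 0.09 in the 5′-most, 0.02 in the middle and -0.05 in the 3′-most segment. The narrower clusters showed the same direction in 57.4% (54.9 to 59.8), with a median of -0.44 bases. In percent of the width of the cluster, the median difference was -2.20% in broad and -1.36% in narrower clusters. By count of clusters, the direction compared as follows. By the same classes of depth the share of narrower clusters with this direction was 53.3%, 59.3%, 68.1% and 69.5%, and in each class its interval overlapped that of the broad clusters. The 6 widest clusters had differences from -27.1 to -1.01 bases, all towards the 5′ end. Earlier results of these libraries were known when this shift was measured, so it is not independent of them, and its cause was not tested.

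**Figure D4:**
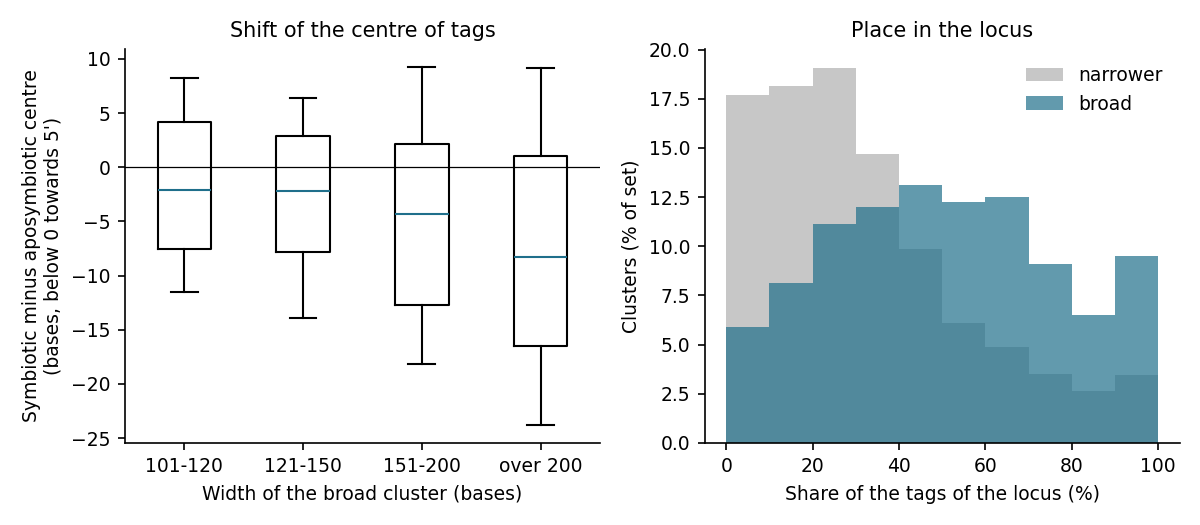
Left, difference between the mean positions of symbiotic and aposymbiotic tags in broad clusters by width class (line, median; box, 25th to 75th percentile; whiskers, 10th to 90th percentile), below 0 where symbiotic tags lie nearer the 5′ end; the median goes from -2.12 to -8.33 bases. Right, share of the tags of the locus held by each cluster, for broad (blue) and narrower (grey) clusters in percent of each set.

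In level, 775 of the 801 broad clusters (96.8%) were within 2-fold between the symbiotic and the aposymbiotic library. The median log2 ratio of symbiotic over aposymbiotic CPM + 1 was 0.01 over the 801 broad clusters and -0.02 over all 2664 clusters with at least 100 pooled tags. It was above 0 in 407 broad clusters and below 0 in 394. By a rule of size, 8 broad clusters had symbiotic levels at least 2-fold above the aposymbiotic ones (0.999%, against 1.01% of all clusters tested), and 18 had levels at least 2-fold below them (2.25%, against 2.48%). These shares are near the background. None of the 801 was at least 4-fold higher or lower, nor was any of the 2664 (0%). The whole counting interval of the CPM ratio lay at 2-fold or beyond, in either direction, in 8 broad clusters (0.999%). This share was 0.492% in narrower clusters and 0.601% in all clusters tested. These 8 are not the same set as the 8 that were at least 2-fold higher. In whole animals, fewer cells of a type and less RNA per cell cannot be told apart.

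**Figure D5:**
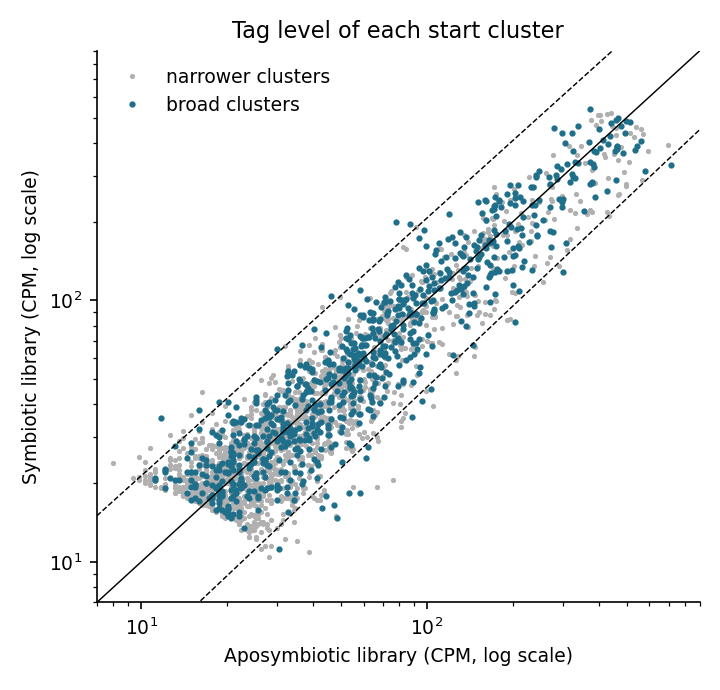
Level of each cluster in the aposymbiotic (x axis) and symbiotic (y axis) library, in CPM on log scales, with broad clusters in blue, narrower ones in grey, equality as a solid line and the 2-fold rule on CPM + 1 as dashed lines. Most points lie between the dashed lines, with 8 broad clusters above and 18 below.

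The broad cluster with the highest ratio lay on scaffold_1 from 37903293 to 37903472, minus strand, with 25 aposymbiotic and 139 symbiotic tags (11.7 and 35.4 CPM), 3.03-fold higher (1.97 to 4.84). Better supported by tags was the cluster on scaffold_7 from 17631887 to 17632145, plus strand, with 166 and 780 tags (77.6 and 199 CPM), 2.56-fold higher (2.16 to 3.04). It was the strongest of 5 clusters in its locus. Its width was 224 bases by all aposymbiotic and 217 bases by all symbiotic tags, and 224 and 185 bases with equal tags. The cluster on scaffold_11 from 11062586 to 11062721, plus strand, had 34 and 150 tags (15.9 and 38.2 CPM), 2.40-fold higher (1.65 to 3.60). On scaffold_9 from 16219082 to 16219223, plus strand, 187 and 772 tags (87.5 and 197 CPM) made a difference of 2.25-fold (1.91 to 2.65). That cluster was alone in its locus, with the same dominant base, widths of 122 and 121 bases and a Kolmogorov-Smirnov distance of 0.122.

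In the other direction, the lowest ratio was on scaffold_13 from 9832786 to 9832980, plus strand, with 104 aposymbiotic and 58 symbiotic tags (48.6 and 14.8 CPM), 3.29-fold lower (2.37 to 4.62) in the symbiotic library. On scaffold_5 from 15467794 to 15468035, plus strand, 125 and 72 tags (58.5 and 18.3 CPM) were 3.19-fold lower (2.37 to 4.32). On scaffold_7 from 15634466 to 15634607, plus strand, 114 and 72 tags (53.3 and 18.3 CPM) were 2.91-fold lower (2.15 to 3.96), with 43.9% and 45.8% of the tags at the shared dominant base. On scaffold_10 from 10670416 to 10670552, plus strand, 101 and 65 tags (47.2 and 16.6 CPM) were 2.85-fold lower (2.07 to 3.96). In each of these 4 the widths by all aposymbiotic and all symbiotic tags were within 7 bases of each other. With equal tags the cluster on scaffold_10 had widths of 127 and 111 bases.

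Broad clusters were often the main cluster of their surroundings, and like the narrower ones they were seldom the 5′-most. Loci were formed from clusters of at least 5 pooled tags that lay on 1 strand with gaps of at most 1000 bases, and take the place of transcripts, as no gene models were used. The 801 broad clusters lay in 670 loci, of which 559 held 1 broad cluster, 96 held 2 and the rest up to 5. A broad cluster was the strongest of its locus in 556 cases (69.4%, 66.1 to 72.6), against 42.9% (40.4 to 45.3) of the narrower clusters. It held a median of 49.8% of the tags of its locus, against 27.4%. The share of strongest clusters was 66.0% with 100 to 199 tags and 72.2% with 1000 or more, where it was 43.2% and 38.1% in the narrower set, so the contrast held at each depth. It was 60.4% in broad clusters of 101 to 120 bases and 86.4% in those over 200 bases. Since wide clusters take up more of a locus by construction, this is a description and not a test.

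Only 19 broad clusters were alone in their locus. In loci of 2 or more clusters, 69 of 782 (8.82%) were the 5′-most cluster, against 10.9% (9.38 to 12.5) of the narrower ones, and 105 (13.4%) were the 3′-most. A broad cluster had a median of 3 clusters of at least 5 tags on its 5′ side. Counting only clusters of at least 20 tags raised the share of the 5′-most to 20.3%. Of the 245 broad clusters that were not the strongest, 111 (45.3%, 39.0 to 51.8) lay on the 3′ side of the strongest one, at a median distance of 379 bases over both sides. In 48 of the 245 cases the strongest cluster of the locus was at or above 500 CPM.

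The deposited cluster lists, which were called in each library alone, break up many of these regions. Each library holds only part of the pooled positions, so with the same joining distance some splitting followed by construction. A broad cluster overlapped a single deposited cluster in 218 cases in the aposymbiotic list and in 462 cases in the symbiotic list. It overlapped 2 or more in 583 (72.8%) and 339 (42.3%), with at most 8 and 7. The symbiotic library was 1.84 times as deep by total tags, and the part of depth in this difference was not tested.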

How the data were processed

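Tags were counted in 1 aposymbiotic and 1 symbiotic library of whole hydra. Per the submitters' processing notes the tools were STAR 2.7.11b and fastp 1.1.0; their settings, the genome build, the program that counted tags and the handling of duplicates were not given in the sources used here. The files deposited by the authors hold counts, not normalized: tags at each stranded base, and sums over clusters of at least 5 tags. Joining positions with at most 20 bases between them, strands ignored, rebuilt 100% of the deposited clusters.

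Broad clusters were formed as the report states, with percentiles taken in scaffold coordinates and strands kept apart, and levels were scaled by the total tags of each library. Ratios for counts by size used CPM + 1, and folds of single clusters are CPM ratios with exact binomial 95% intervals. Shares have exact Clopper-Pearson intervals. Ties for the dominant base went to the 5′ side. The members and lists were chosen with earlier results of these data known. Regions named are the 6 members with the most tags, the 6 widest, the 4 highest and 4 lowest ratios, the 3 largest Kolmogorov-Smirnov distances (50 tags or more in each library), the 3 largest and 3 smallest dominant shares, and the 3 on either side of the width threshold. Sequences and gene models were not used here, so the planned work on them was not run. The rules for clusters and calls were run on simulated data, and no outcome of that run is given here. That run included unchanged clusters made by splitting the pooled tags at random, which holds counting error alone. How often the 2-fold rule calls an unchanged cluster between replicate libraries was not tested. Alternatives changed the joining distance, tag minimum, ceiling, width, depth, capping, scaling (TMM, edgeR 4.0.16 in R 4.3.3), the added constant and the loci. Python 3.11.15 was used with scipy 1.17.1, numpy 2.4.6, matplotlib 3.10.9 and pandas 2.3.3.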

Additional observations from a re-analysis of the deposited data

Results flagged for a closer look

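The strand given in the deposited cluster lists was not used in the comparisons, and it departs from the tags for a small number of broad clusters. In the symbiotic list 4 broad clusters were covered only by deposited clusters listed on the other strand, and in the aposymbiotic list 0 were. They lay on scaffold_8 from 6002779 to 6002953, on scaffold_10 from 601049 to 601265, on scaffold_11 from 13290635 to 13290830 and on scaffold_82 from 941 to 1081, all with their tags on the minus strand. The one on scaffold_11 is the broad cluster with the second most tags, with 1912 symbiotic tags on the minus strand and 1 on the plus strand. Each of the other 3 also had a single symbiotic tag on the plus strand. Over all 801 spans the other strand held 31 tags, at most 3 in a span.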

How the results depend on the processing

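No paired analysis was possible because there is only 1 library of each kind, and for the same reason no replicate was left out. Alternatives for the shift of the centre of tags, and another random draw of equal tags, which left the median widths at 141 and 142 bases, were chosen after seeing the data. Of 78 values under alternatives, 34 moved by over 1.5 times (counts) or out of the 95% interval of the value reported. No alternative changed the sign of the centre shift or put the median log2 ratio of the broad clusters beyond -0.1 to 0.1. The share of broad clusters with the same dominant base was 45.3% with 100 to 199 tags and 74.6% with 1000 tags or more. The cause of the moves was not tested, except that counts change by construction where fewer or more clusters qualify.

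Joining at most 10 bases gave 155 broad clusters, with a median log2 ratio of 0.094, 1 cluster 2-fold higher and 3 lower, 67.7% with the same dominant base, 64.5% the strongest of their locus and a median centre shift of -2.44 bases. Joining at most 40 bases gave 1725 broad clusters, with 22 higher and 42 lower, and 53.7%, 76.9% and -5.18 bases. A minimum of 200 pooled tags left 5 higher and 10 lower, median widths of 154 (aposymbiotic) and 150.5 (symbiotic) bases and 65.7% with the same dominant base. A width above 150 bases left 346 broad clusters, with 2 higher and 3 lower, a median dominant share of 11.9%, 79.2% the strongest of their locus, 69.1% with the symbiotic centre nearer the 5′ end and a median shift of -5.67 bases. The 25th to 75th percentile left 302 broad clusters. Equal depth, with 54.5% of the symbiotic tags drawn, left 5 higher. TMM factors gave a median log2 ratio of 0.049 over the broad clusters. Over all clusters with at least 100 pooled tags it was 0.022 with TMM factors and -0.018 with total scaling. Loci with gaps of at most 300 and 3000 bases had 74.4% and 64.8% as the strongest cluster and 12.4% and 5.90% as the 5′-most, which was 20.3% when only clusters of at least 20 tags were used. With at least 200 symbiotic tags, 94.0% of clusters broad by symbiotic tags were broad by aposymbiotic tags.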
